A study of Canis lupus familiaris with 24 samples.

Results

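The interferon-induced genes MX1, OAS1, OAS2, OAS3, EIF2AK2 and CXCL10 were followed in 4 dogs that had B-cell lymphoma, at a drug-sensitive and a drug-resistant phase of each. They were chosen by name, as all non-control probes whose RefSeq accession belongs to 1 of the 6 dog genes. This gave 11 of the 43603 probes on the array, 1 for EIF2AK2 and 2 for each other gene. All 11 passed the filter on dim probes, which kept 34551 probes. The 2 probes of a gene are called probe 1, the brighter by its mean over all arrays, and probe 2.

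Interferons are secreted when a cell senses foreign or misplaced nucleic acid, and they act on neighbouring cells through surface receptors that switch on a shared set of genes. MX1 codes for a GTPase that traps virus particles inside the cell. OAS1, OAS2 and OAS3 code for enzymes that sense double-stranded RNA and make short adenylate chains that trigger the breakdown of RNA, and EIF2AK2 codes for a kinase that senses the same RNA and halts protein synthesis. CXCL10 codes for a secreted chemokine that draws in T and NK cells carrying the receptor CXCR3 and that responds to interferon gamma. All 6 genes respond to type I interferons.

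Cells were aspirated from peripheral lymph nodes with a fine needle in both phases, and the study compared the phases within each dog. Dog 1 was a male Shih Tzu aged 10 years, dog 2 a male Doberman aged 9 years, dog 3 a castrated male French Bulldog aged 3 years and dog 4 a spayed female French Bulldog aged 5 years. With 1 dog of each kind, dog, breed, age and sex cannot be told apart. Within a phase the dogs also shared no array slide, so slide cannot be told apart from dog either. Every dog and phase, 8 groups in all, was read on 3 one-colour arrays. Whether these 3 came from separate aspirates is not stated, so the p-values below measure only how far arrays of a group differ, which may be technical. The drugs given and any infection of the dogs are not stated in the labels.

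The share of spots well above background ranged from 71.0% to 80.9% between arrays, and 0 spots were saturated. The number of arrays limits the precision. The B cell markers measured, MS4A1 and CD40, were well above background on all arrays, and their summed signal, relative to each array's 75th percentile, lay between 54.7 and 82.7 in the 24 arrays. An aspirate also holds other cells, and in such bulk samples fewer cells of a type and less RNA per cell cannot be told apart. Levels are given as log2 of the processed signal minus that of the array's 75th percentile, so that 0 is the level of a fairly bright probe. A change is the resistant minus the sensitive mean on this log2 scale, with the standard error (SE) of limma, in which 1 spread per probe is shared by all 24 arrays. A probe was called at an adjusted p under 0.05 over all kept probes together with a change of at least 2-fold. Levels of different probes depend on their sequence and are not set against each other.

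The 6 genes rose in dog 1 and fell in dog 2. In dog 3 all but CXCL10 rose, by less than 2-fold, and in dog 4 they showed no common direction. In dog 1, 9 of 11 probes were called higher, where 3.56% of all probes were, and in dog 2, 9 of 11 were called lower, where 10.1% of all probes were. The same 9 probes, those of 5 genes, were called higher in dog 1 and lower in dog 2, a pattern that 0.787% of all probes had. The 2 probes of OAS3 passed the adjusted p in both dogs but changed by less than 2-fold, and at the adjusted p alone all 11 were higher in dog 1, where 27.4% of all probes were, and lower in dog 2, where 23.7% were. In dogs 3 and 4, 0 of 11 probes were called at this rule, where 6.73% and 5.34% of all probes were called in either direction. The median change of the 11 probes was 1.87, -2.76, 0.54 and -0.01 in dogs 1 to 4, against -0.05, 0.10, 0.03 and 0.05 over all kept probes.

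**Figure D1:**
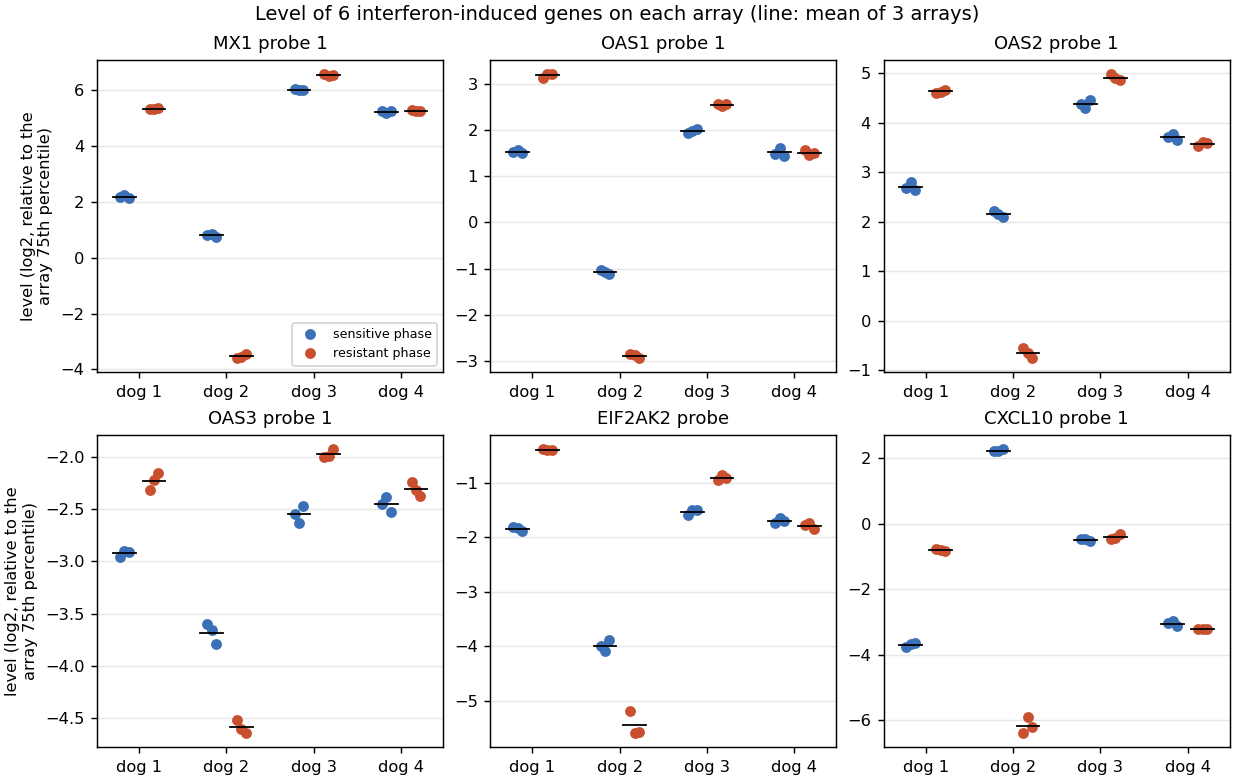
Level of the brighter probe of each gene on each of the 24 arrays, as log2 of the signal relative to the array's 75th percentile (vertical axis), by dog (horizontal axis) and phase (colour); a line marks the mean of 3 arrays, and each panel has its own scale. The resistant arrays of dog 2 are the lowest in all 6 panels, with MX1 at -3.58 to -3.46, and CXCL10 differs from the other genes in being highest on the sensitive arrays of dog 2, at 2.21 to 2.27.

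MX1, the GTPase gene, had the widest range of the 6 genes. On the arrays of dog 1 probe 1 read 2.16, 2.23 and 2.15 in the sensitive phase and 5.30, 5.32 and 5.35 in the resistant phase. It thus rose by 3.15 (SE 0.03, n = 3 arrays a phase, 8.85-fold, limma adjusted p = 1.76e-21) with no overlap of the arrays. In dog 2 it read 0.81, 0.84 and 0.75 and then -3.58, -3.54 and -3.46. The resistant arrays were all lower, and the level fell by 4.33 (SE 0.03, 20.0-fold, limma adjusted p = 1.58e-23). Phases without overlap were common, with 29.8% of all probes higher in this way in dog 1 and 27.6% lower in dog 2. In dog 3 31.4% were higher in this way, and in dog 4 25% were lower. With normexp background correction, which raises dim signals, the change was -3.55 (11.7-fold).

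In dogs 3 and 4 MX1 was high in both phases. Probe 1 read 6.02, 6.0 and 5.99 in the sensitive and 6.56, 6.49 and 6.52 in the resistant phase of dog 3, a rise of 0.52 (SE 0.03, limma adjusted p = 4.95e-10) that stayed under 2-fold. In dog 4 it read 5.23, 5.16 and 5.23 and then 5.28, 5.26 and 5.23, so the phases overlapped and the change was 0.05 (SE 0.03, limma adjusted p = 0.253). The resistant levels of dogs 1 and 4 were close, at means of 5.33 and 5.26, and their difference missed the threshold (-0.07, SE 0.03, limma adjusted p = 0.0677).

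The other MX1 probe moved alongside. Its changes were 3.32, -5.02, 0.76 and 0.11 in dogs 1 to 4, of which the -5.02 of dog 2 is a fitted value for a probe not well above background on any of the 3 resistant arrays. Against the lowest signal counted as above background on those arrays, probe 2 of MX1 was at least 24.9-fold lower in the resistant than in the sensitive phase of dog 2, and at least 1450-fold lower than in the resistant phase of dog 3. These bounds hold for the processed signal, and with normexp the fitted folds were 4.43 and 216, and they were 7.54 and 390 in the authors' value table. For all such bounds the dim side is, on each array, the lowest signal of any probe well above background or the probe's own signal, whichever is higher. The 8 group means of probe 1 spanned 10.05 log2 units, from -3.53 in the resistant phase of dog 2 to 6.52 in that of dog 3, the 27th largest span among 34548 kept probes with a value in every group. The median span was 1.17.

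OAS1, OAS2 and OAS3, the adenylate chain synthetase genes, are neighbours, in the order OAS1, OAS3, OAS2, in the RefSeq annotation of the assembly UU_Cfam_GSD_1.0. Whether the probes of these related genes also bind each other's RNA was not tested. OAS1 probe 1 read 1.53, 1.56 and 1.5 in the sensitive and 3.13, 3.21 and 3.21 in the resistant phase of dog 1, a rise of 1.65 (SE 0.04, 3.15-fold). In dog 2 it read -1.02, -1.08 and -1.12 and then -2.84, -2.88 and -2.93, a fall by 1.81 (SE 0.04, 3.51-fold). Neither dog's phases overlapped.

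In dog 3 OAS1 probe 1 moved from 1.93, 1.99 and 2.02 to 2.56, 2.52 and 2.57, a rise of 0.57 (SE 0.04). In dog 4 it read 1.48, 1.62 and 1.45 in the sensitive and 1.56, 1.47 and 1.5 in the resistant phase, which overlapped, with a change of -0.01 (SE 0.04). The second probe changed by 1.23, 0.46 and 0.06 in dogs 1, 3 and 4. In dog 2 this second OAS1 probe was on 0 of 3 resistant arrays well above background and was at least 2.32-fold lower there than in the sensitive phase. It was no longer called with normexp background correction or in the authors' value table, with changes of -0.27 and -0.48.

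OAS2 was well above background on every array. Probe 1 of OAS2 read 2.68, 2.80 and 2.64 in the sensitive and 4.61, 4.62 and 4.67 in the resistant phase of dog 1, a rise of 1.92 (SE 0.06, 3.79-fold). In dog 2 it read 2.21, 2.16 and 2.09 and then -0.55, -0.66 and -0.75, a fall by 2.80 (SE 0.06, 6.98-fold). The phases lay apart in both dogs.

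In dog 3 OAS2 probe 1 read 4.37, 4.30 and 4.46 and then 4.98, 4.90 and 4.86, a rise of 0.54 (SE 0.06) without overlap. In dog 4 it was lower in the resistant phase, at 3.53, 3.62 and 3.59 against 3.72, 3.77 and 3.66, by a change of -0.14 (SE 0.06, limma adjusted p = 0.0491). The second OAS2 probe, which is printed at 5 places on the array with a median SD of 0.05 between them, changed by 1.87, -2.76, 0.51 and -0.20 in dogs 1 to 4.

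OAS3 rose in dog 1 and fell in dog 2, as OAS1 and OAS2 did, over a smaller range. Probe 1 of OAS3 read -2.96, -2.90 and -2.91 in the sensitive and -2.32, -2.22 and -2.16 in the resistant phase of dog 1. Dog 2 went from -3.60, -3.66 and -3.79 to -4.52, -4.60 and -4.64. The phases did not overlap in either dog, and the changes were 0.70 (SE 0.06, 1.62-fold, limma adjusted p = 6.46e-09) and -0.90 (SE 0.06, 1.87-fold, limma adjusted p = 1e-10). Dog 3 had -2.55, -2.63 and -2.47 and then -2.0, -1.99 and -1.93, a change of 0.58 (SE 0.06), and dog 4 had -2.45, -2.39 and -2.53 and then -2.24, -2.32 and -2.38, a change of 0.14 (SE 0.06, limma adjusted p = 0.047).

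The second OAS3 probe, also printed at 5 places, changed by 0.61, -0.98, 0.60 and 0.08. The 8 group means of probe 1 spanned 2.61 log2 units, 5471st of 34548, whereas those of OAS1 and OAS2 probe 1 spanned 6.07 and 5.56. The change of OAS3 in dog 3 thus lay close to that in dog 1 (0.58 and 0.70 for probe 1), while MX1 probe 1 changed by 0.52 in dog 3 and 3.15 in dog 1.

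EIF2AK2, the RNA-sensing kinase gene, had 1 probe. It read -1.81, -1.82 and -1.88 in the sensitive and -0.38, -0.40 and -0.40 in the resistant phase of dog 1, a rise of 1.44 (SE 0.08, 2.72-fold, limma adjusted p = 1.78e-11). In dog 2 it read -4.00, -4.08 and -3.89 and then -5.19, -5.59 and -5.58, a fall by 1.46 (SE 0.08, 2.76-fold, limma adjusted p = 8.88e-12). The 6 arrays of dog 2 were the lowest of the 24.

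In dog 3 EIF2AK2 read -1.58, -1.49 and -1.5 and then -0.95, -0.86 and -0.90, a rise of 0.62 (SE 0.08, limma adjusted p = 2.39e-06). In dog 4 it read -1.74, -1.64 and -1.70 and then -1.77, -1.74 and -1.85, with touching phases and a change of -0.09 (SE 0.08, limma adjusted p = 0.347). The fall of EIF2AK2 in dog 2 was smaller than 2-fold, with changes of -0.43 and -0.65, with normexp background correction and in the authors' value table, and so was no longer called.

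CXCL10, the chemokine gene, fell the most in dog 2. Probe 1 of CXCL10 read 2.22, 2.21 and 2.27 on the sensitive arrays of dog 2, the highest level of the 24 arrays, and -6.39, -5.92 and -6.20 on its resistant arrays, the lowest. It fell by 8.40 (SE 0.08, 339-fold, limma adjusted p = 1.29e-22), with 2 of the 3 resistant arrays well above background. The size of this fall depended on how background was treated, and it was 60.7-fold with normexp and 104-fold in the authors' value table. In dog 1 it rose from -3.78, -3.68 and -3.64 to -0.78, -0.82 and -0.85, by 2.88 (SE 0.08, 7.37-fold, limma adjusted p = 9.23e-16), or 4.64-fold with normexp.

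CXCL10 did not pass the test in the French Bulldogs. In dog 3 probe 1 read -0.46, -0.48 and -0.53 and then -0.46, -0.45 and -0.33, which overlapped, with a change of 0.08 (SE 0.08, limma adjusted p = 0.463). In dog 4 it read -3.05, -2.99 and -3.13 and then -3.22, -3.22 and -3.21, with a change of -0.16 (SE 0.08, limma adjusted p = 0.0955). The second CXCL10 probe changed by 2.52, -7.53, 0.22 and -0.42 in dogs 1 to 4 with an SE of 0.28, the largest of the 11 probes, and its SD between the 3 arrays of a group reached 0.65 on the dim resistant arrays of dog 2.

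In dog 3, 9 of 11 probes were higher at an adjusted p under 0.05 without a minimum fold, by 0.46 to 0.76, where 26.2% of all probes were, and the other two, of CXCL10, changed by 0.08 and 0.22. In dog 4, 1 probe was higher at that looser rule, where 26.5% of all probes were, and 2 were lower, where 21.6% were. They were OAS3 probe 1 at 0.14 and the 2 OAS2 probes at -0.14 and -0.20. With the slide as a random block OAS2 probe 2 alone passed in dog 4 (limma adjusted p = 0.000577), and OAS3 probe 1 (0.11) and OAS2 probe 1 (0.156) did not. All resistant arrays of dog 4 lay on a slide of their own that was scanned in a separate session, so phase and slide cannot be told apart in dog 4.

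Dogs 1, 2 and 3 each had 1 slide that held both phases. Within that slide MX1 probe 1 changed by 3.12, -4.28 and 0.55 in these dogs, and CXCL10 probe 1 by 2.92, -8.44 and 0.03. The counts of called probes within the slide were again 9, 9 and 0 of 11. In dogs 1 and 2 the changes of the other genes within the slide, for probe 1, were 1.60 and -1.76 (OAS1), 1.90 and -2.74 (OAS2), 0.61 and -0.80 (OAS3) and 1.46 and -1.57 (EIF2AK2).

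The dog-by-phase interaction, which tests whether the change differs between dogs, passed for 11 of 11 probes, where it passed for 80.5% of all probes. MX1 probe 1 ranked 10th of all probes in that test (limma F-test adjusted p = 9.38e-24), CXCL10 probe 1 28th and OAS2 probe 2 33rd, while OAS3 probe 2 ranked 5948th. The change in dog 2 was lower than that in dog 1 by at least 2-fold for 11 of 11 probes, where 10.6% of all probes were called in that direction. The change in dog 3 was lower than that in dog 1 for 7 of 11 probes, where 6.43% were, and the 4 exceptions were both OAS3 probes, the second OAS1 probe and EIF2AK2. Between dogs 3 and 4 the change differed by at least 2-fold for 0 of 11 probes, where 8.82% of all probes were called.

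Over the 4 dogs together no direction was shown. With the dog as the replicate (limma on the means of the 8 groups, dogs as blocks), 0 of 11 probes passed, where 0% of all probes did. At an unadjusted p under 0.05 there were 0 of 11, where 6.14% of all probes passed. The mean change of MX1 probe 1 was -0.15 (SE 1.19, n = 4 dogs, higher in 3 of 4), that of OAS1 probe 1 0.10 (SE 0.57), that of EIF2AK2 0.13 (SE 0.49) and that of CXCL10 probe 1 -1.40 (SE 1.87, higher in 2 of 4). The adjusted p of the 11 probes in this limma test lay between 0.878 and 0.997.

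The genes already differed between the dogs in the sensitive phase. All 11 probes passed the F-test between dogs, where 86.6% of all probes did. The dogs shared no slide in this phase, so dog and slide cannot be told apart in these differences. Dog 2 had the lowest sensitive level for MX1, the OAS genes and EIF2AK2 and the highest for CXCL10. Against dog 3, dog 2 was lower for 9 of 11 probes, where 7.76% of all probes were called in that direction, and higher for the 2 CXCL10 probes, where 9.38% were. Against dog 4 the same 9 probes were lower in dog 2, where 9.5% of all probes were, and the CXCL10 probes higher, where 12.4% were.

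MX1 had the widest sensitive-phase differences of the 5 genes that were lowest in dog 2. Probe 1 was highest in dog 3 at 6.0 ± 0.01 (SD, n = 3 arrays), followed by dog 4 at 5.21 ± 0.04, dog 1 at 2.18 ± 0.04 and dog 2 at 0.80 ± 0.04, and no neighbours in this order overlapped. The step from dog 2 to dog 1 was 1.38 (SE 0.03), and the span from dog 2 to dog 3 was 5.21 (SE 0.03, 36.9-fold, limma adjusted p = 1.44e-24). OAS2 probe 1 had the same order, at 4.37 ± 0.08, 3.72 ± 0.05, 2.71 ± 0.08 and 2.15 ± 0.06, with no overlap. Dogs 1 and 2 differed by less than 2-fold in OAS2 (0.55, SE 0.06).

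For the other genes dog 2 stood apart while dogs 1, 3 and 4 lay close together. OAS1 probe 1 was at 1.98 ± 0.04 in dog 3, 1.53 ± 0.03 in dog 1 and 1.52 ± 0.09 in dog 4, the last pair overlapping (difference -0.01, SE 0.04, limma adjusted p = 0.846), and at -1.07 ± 0.05 in dog 2. EIF2AK2 was at -1.52 ± 0.05 in dog 3, -1.69 ± 0.05 in dog 4 and -1.84 ± 0.04 in dog 1, and at -3.99 ± 0.10 in dog 2. The steps from dog 3 to dog 4 and from dog 4 to dog 1 missed the threshold (limma adjusted p = 0.0703 and 0.119). Dog 3 exceeded dog 1 by 0.31 (SE 0.08, limma adjusted p = 0.0018), without overlap but under 2-fold. OAS3 probe 1 was at -2.46 ± 0.07 in dog 4 and -2.55 ± 0.08 in dog 3, which overlapped, then -2.92 ± 0.03 in dog 1 and -3.68 ± 0.09 in dog 2.

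CXCL10 had another order before resistance. Probe 1 was highest in dog 2 at 2.23 ± 0.03, followed by dog 3 at -0.49 ± 0.04, dog 4 at -3.05 ± 0.07 and dog 1 at -3.70 ± 0.07. Dog 2 exceeded dog 1 by 5.93 (SE 0.08, 61.0-fold, limma adjusted p = 7.84e-21), or 35.8-fold with normexp, and dog 4 exceeded dog 1 by 0.65 (SE 0.08), which the second probe put at 0.55 (SE 0.28, limma adjusted p = 0.101). Against dog 1, dog 2 was higher for the 2 CXCL10 probes, where 12.9% of all probes were called, and lower for 5 probes, where 9.88% were. Against dog 1, dog 3 was higher for 6 probes, those of MX1, OAS2 and CXCL10, where 9.43% of all probes were called, and dog 4 for 4 probes, those of MX1 and OAS2, where 6.59% were. Between the French Bulldogs only the 2 CXCL10 probes were called, lower in dog 4, where 7.38% of all probes were.

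In the resistant phase dog 2 was lowest for every gene. Here too the dogs shared no slide, so dog and slide cannot be told apart. The resistant phase of dog 2 held the lowest of the 8 group means for 11 of 11 probes, as it did for 11.9% of all probes. All 11 passed the F-test between dogs in this phase, where 84.9% of all probes did, and MX1 probe 1 had the smallest p of all probes (limma adjusted p = 2.39e-28). Dog 2 was at least 2-fold lower than dog 1 for 11 of 11 probes (background 8.11%), than dog 3 for 11 of 11 (8.53%) and than dog 4 for 11 of 11 (11.8%). MX1 probe 1 was 1060-fold lower in dog 2 than in dog 3, OAS2 probe 1 47.3-fold, EIF2AK2 23.4-fold and OAS3 probe 1 6.13-fold. With normexp these folds were 587 for MX1, 6.64 for EIF2AK2 and 3.13 for OAS3, and they were 9.98 for EIF2AK2 and 4.05 for OAS3 in the authors' value table.

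The highest of the 8 groups was the resistant phase of dog 3 for the 6 probes of MX1, OAS2 and OAS3, as it was for 7.73% of all probes. The resistant phase of dog 1 was highest for OAS1 and EIF2AK2. OAS1 probe 1 stood at 3.18 ± 0.05 there, against 2.55 ± 0.03 in dog 3 and 1.51 ± 0.05 in dog 4. Dog 4 was lower than dog 1 for 7 of 11 probes (background 6.07%), those of OAS1, OAS2, EIF2AK2 and CXCL10, and lower than dog 3 for 7 of 11 (background 4.98%), among them both of MX1, OAS2 and CXCL10. Dog 3 was higher than dog 1 for the 2 MX1 probes (background 8.51%) and lower for the second OAS1 probe (background 5.01%).

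**Figure D2:**
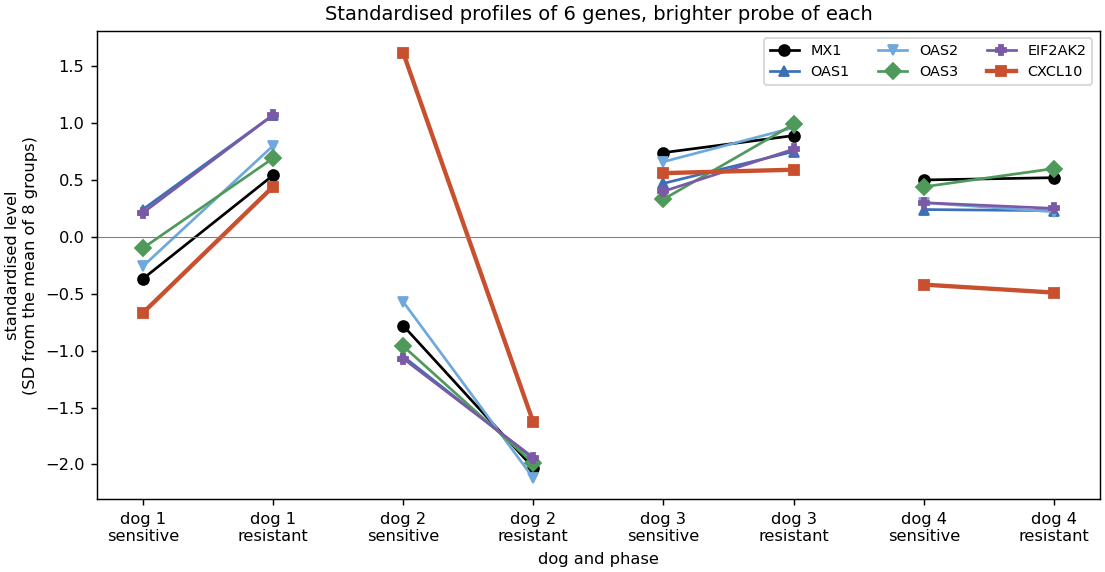
Standardised level (vertical axis, in SD from the mean of the 8 groups) of the brighter probe of each gene in the 8 groups (horizontal axis); lines join the phases of a dog. MX1, OAS1, OAS2, OAS3 and EIF2AK2 run close together, with dog 2 below the mean in both phases, whereas CXCL10 starts above the mean in dog 2 and below it in dog 4.

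The profiles over the 8 group means were alike for 5 of the 6 genes. Pairs among MX1, OAS1, OAS2, OAS3 and EIF2AK2 had Pearson correlations between 0.93 and 1.00, the highest being OAS1 with EIF2AK2. These are descriptions over 8 points that share dogs and arrays. Without dog 2 the same pairs had correlations between 0.44 (MX1 with OAS1) and 0.99 (OAS1 with EIF2AK2) over 6 points. CXCL10 correlated with the other 5 at 0.31 to 0.54 over the 8 means and at 0.61 to 0.93 without dog 2. The 2 probes of a gene correlated at 0.992 to 1.000.

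Among 712 other genes with a symbol, the profile most like the mean standardised profile of the 6 was that of TLR7, an endosomal sensor of single-stranded RNA, with a correlation of 0.96 over the 8 group means. Others with a high correlation were the lysosomal fucosidase gene FUCA1, the galectin gene LGALS9, the fucosyltransferase gene FUT10 and the DNA repair gene MGMT (0.92 each). Without dog 2 the correlation was 0.92 for TLR7 and LGALS9, and it was 0.61 for FUCA1, 0.50 for MGMT and -0.02 for FUT10. The least alike was SLC7A9 at -0.97, which lay close to background. Of all probes outside the 6 genes, 282 (0.817%) had a correlation of at least 0.90, of which 14 had a symbol.

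TLR7, picked by its likeness to the 6 genes in these same values, changed in their directions by less than 2-fold. Its changes were 0.65, -0.68, 0.37 and 0.08 in dogs 1 to 4 (SE 0.05). In dog 1 its level moved from 0.17 to 0.82, and dog 2 went from -0.67 to -1.35. TLR9, the sensor of unmethylated DNA that B cells also use, was higher in each dog by 0.37 to 0.67, and the brighter probe of the adaptor gene MAVS changed by -0.25, 0.37, 0.55 and 0.09. The other MAVS probe had the opposite signs in dogs 1 and 2, at 0.60 and -0.49. Of these 3 measured genes for sensors and adaptors, 0 were called in any dog. The shares of all probes called in either direction were 11.3%, 13.6%, 6.73% and 5.34% in dogs 1 to 4.

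LGALS9, an interferon-stimulated galectin gene, rose in dog 1 by 1.02 (SE 0.03) and changed by -0.45 in dog 2. The class I gene DLA-79 fell in dog 2 by 2.05 (SE 0.08), from 1.54 to -0.51.

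Of 7 other interferon-stimulated genes, 1 was called higher in dog 1, where 3.56% of all probes were, and 1 lower in dog 2, where 10.1% were. In dogs 3 and 4, 0 of the 7 were called, where 6.73% and 5.34% of all probes were in either direction. Those not called were the peptide loading gene TAPBP, the immunoproteasome genes PSMB8 and PSMB9 and the class I genes DLA88 and DLA-64. Their brightest probes had changes between -0.77 and 0.88 over the 4 dogs. The other DLA-64 probes changed by -0.26 and -0.46 in dog 1 and by -0.80 and -1.12 in dog 2, of which -1.12 is past 2-fold. The median change of the 7 was 0.35, -0.45, 0.06 and 0.05 in dogs 1 to 4. These genes are 7 of the 56 listed, so most genes of the interferon response are not named here.

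**Figure D3:**
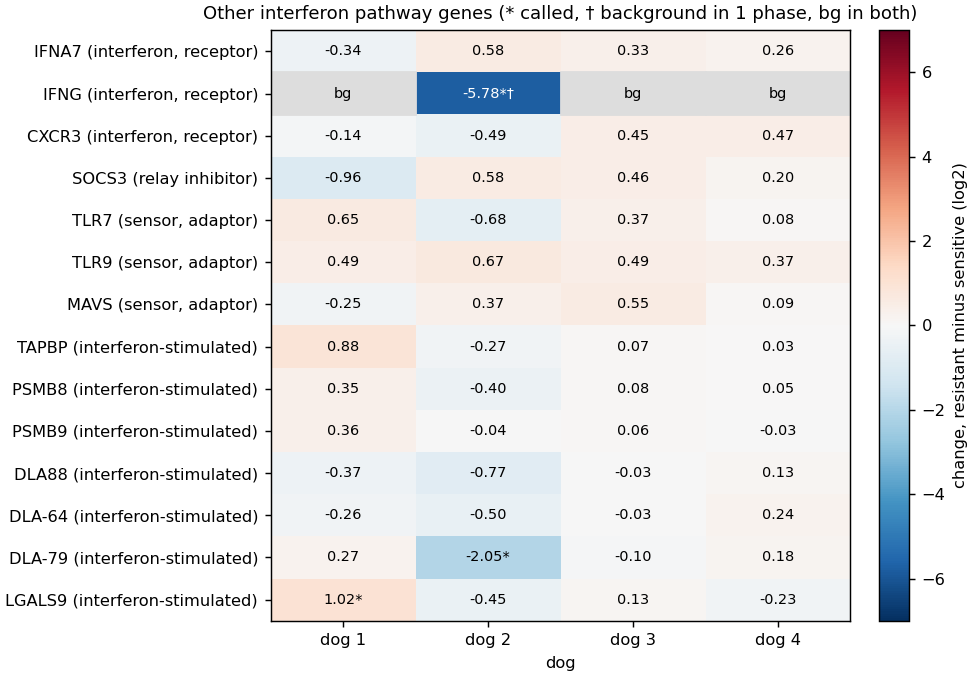
Change between the phases (number and colour, resistant minus sensitive, log2) of 14 other interferon pathway genes (rows) in the 4 dogs (columns), for the brightest probe of each; a star marks a called change, a dagger a fitted value with 1 phase not well above background and bg a gene not well above background in either phase. LGALS9 rose in dog 1, and IFNG and DLA-79 fell in dog 2.

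Among ligands and receptors, IFNG, which codes for interferon gamma, was well above background in 1 of the 8 groups, the sensitive phase of dog 2, where it read -2.93 to -2.77. This is also the group with the highest CXCL10. IFNG was at least 11.7-fold lower in the resistant phase of dog 2, and at least 11.6-fold lower in each other group, than in that sensitive phase. IFNA7, a type I interferon gene, changed by -0.34, 0.58, 0.33 and 0.26 in dogs 1 to 4 (SE 0.16), and CXCR3, the receptor gene for CXCL10, by -0.14, -0.49, 0.45 and 0.47 (SE 0.36). SOCS3, an inhibitor of cytokine signalling, changed by -0.96, 0.58, 0.46 and 0.20. None of IFNA7, CXCR3 and SOCS3 was called in any dog, where 5.34% to 13.6% of all probes were called in either direction.

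T cell and NK cell markers fell together with the 6 genes in dog 2 and against them in dog 1. In dog 2, 5 of 5 T cell markers and 2 of 2 NK and cytotoxic cell markers were called lower, where 10.1% of all probes were. Their summed signals fell from 4.41 to 4.65 down to 0.273 to 0.284, and from 36.1 to 37.0 down to 0.457 to 0.510. The NK receptor gene KLRD1 changed by -6.42 (SE 0.08) and the chemokine gene CCL5, made by T and NK cells, by -6.24 (SE 0.09). KLRD1 was well above background on 2 of the 3 resistant arrays. CD8A, of cytotoxic T cells, fell by 4.84 (SE 0.37), and the costimulatory receptor genes CD28 and ICOS were at least 29.6-fold and 11-fold lower and not well above background on all 3 resistant arrays. The median change of the T cell markers in dog 2 was -4.84, or -4.66 with these 2 genes at their bound.

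In dog 1, where all 6 genes were higher in the resistant phase, 3 of 5 T cell and 2 of 2 NK markers were called lower, where 7.75% of all probes were. The brighter probe of CTLA4, an inhibitory T cell receptor gene, was at least 10.2-fold lower, while its other probe changed by -1.82. CCL5 changed by -2.91 and KLRD1 by -1.56, and the summed T cell signal went from 0.394 to 0.459 down to 0.248 to 0.275. ICOS, 1 of the 3, was well above background on 1 sensitive array alone, and CD28, another of them, on 1 of 3 resistant arrays. In dog 3, 3 of 5 T cell markers and 1 of 2 NK markers were called lower, where 5.45% of all probes were, and in dog 4 none was, where 1.57% were. ICOS, among those called in dog 3, was at least 2.27-fold lower and not well above background in the resistant phase. The part of T and NK cells in the changes of the 6 genes was not tested.

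Markers of the other cells in an aspirate moved differently between the dogs. The neutrophil peptide gene CAMP changed by -5.46 in dog 1, 4.49 in dog 2 and -5.41 in dog 3, and MMP9 by -1.97, 2.52 and -4.91, while 1 of the 2 other MMP9 probes changed by -0.03 in dog 2. Of the 4 neutrophil markers, 3 were called lower and 1, ELANE, higher in dog 1, 2 higher in dog 2 and 3 lower in dog 3, with summed signals of 2.16 to 2.35 and then 0.239 to 0.296 in dog 1. CXCR2 changed by -2.17 in dog 1 and was called in no other dog. The macrophage marker FCGR1A, itself induced by interferon gamma, changed by -3.67, 1.62 and -2.64 in dogs 1 to 3, against the direction of the 6 genes in dogs 1 and 2. The other macrophage marker, CD163, changed with that direction in dogs 1 and 2, at 0.53 and -0.74, and was called lower in dog 3 at -1.33.

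Of 10 stroma markers, taken by their brightest probes, 4 were called lower and 1 higher in dog 1, 8 lower in dog 2, 6 lower in dog 3 and 2 lower in dog 4. The shares of all probes called lower were 7.75%, 10.1%, 5.45% and 1.57% in dogs 1 to 4, and those called higher 3.56%, 3.53% and 1.28% in dogs 1 to 3, which also stand beside the neutrophil and dendritic cell counts. CXCL12 fell in each dog, with changes of -2.77, -1.77, -1.88 and -1.69, and the T zone chemokine gene CCL19 changed by 2.5, -2.88, -2.66 and -1.28. CCL21 changed by 0.58, -2.80, -1.56 and -0.34. The brightest probe of COL1A2 changed by -3.13, -1.57, -1.39 and -0.55. DCN, 1 of the 8 in dog 2, was not well above background in the resistant phase and at least 1.88-fold lower, while its other probe changed by 0.03. In dog 3 DCN changed by -3.74. COL1A1, also 1 of the 8, changed by -1.93 in dog 2, but its other probes changed by -0.27, -0.32 and 0.08. The other probes of COL1A2 changed by -1.56 to -0.17 in dog 2. Of 4 dendritic cell markers, 1 was called lower in dog 1, and 2 were lower and 1 higher in dog 3, among them FLT3 at -1.09 and -1.36, CD86 at -1.11 and CD1C at 1.12 in dog 3. By their brightest probes the 2 B cell markers changed by -0.29 to 0.35 over the 4 dogs and were called in none. The other CD40 probe changed by 0.67 in dog 1 and 0.00 in dog 2. The part of these cells in the changes of the 6 genes was not tested.

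**Figure D4:**
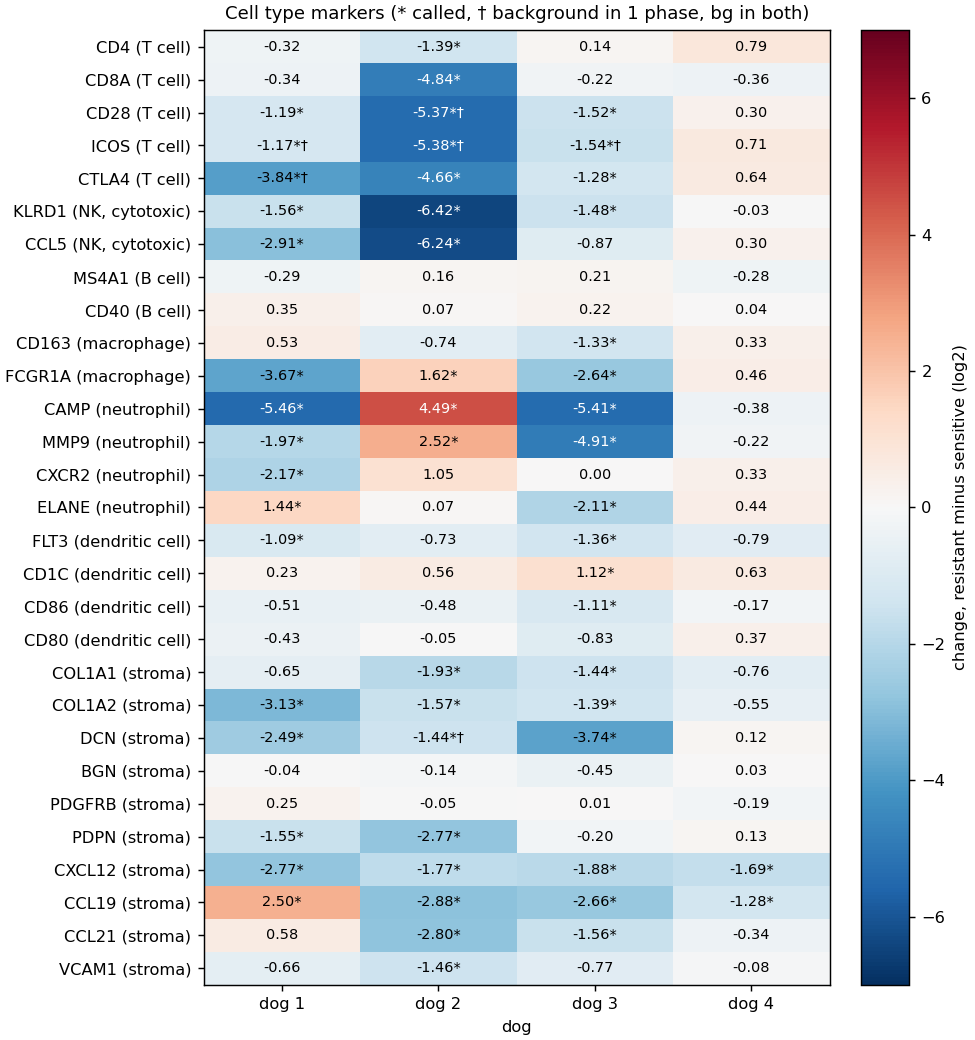
Change between the phases (number and colour, resistant minus sensitive, log2) of 29 cell type markers (rows) in the 4 dogs (columns), for the brightest probe of each; a star marks a called change and a dagger a fitted value with 1 phase not well above background. T cell and NK markers fell in dog 2, KLRD1 with a change of -6.42, and the B cell markers MS4A1 and CD40 stayed between -0.29 and 0.35.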

How the data were processed

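Cy3-labelled RNA of 24 lymph node samples was hybridised to one-colour Agilent arrays. The RNA integrity number was above 9 per the labels. Groups and replicate numbers come from the sample titles. The deposited scanner files hold spot intensity from Agilent Feature Extraction, whose version, from the submitters' processing notes, was 10.7.3.1. Its processed signal is, per the file headers, background-subtracted and detrended. The authors' value table held the same numbers as the raw median intensity (largest difference 0), so it is linear and not normalised. Its column medians over non-control spots lay between 102 and 152.

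Values are log2 of the processed signal minus each array's 75th percentile (676 to 1118 intensity units). Control spots (1417 of 45220) and outlier spots (6 to 195 an array) were left out, replicate spots were averaged, and a probe was kept where some group had all 3 arrays well above background. Accessions were named, without versions, through a RefSeq table of UU_Cfam_GSD_1.0, in which 832 of 35908 identifiers had a match. All 24 arrays in 8 groups entered limma (3.58.1, under R 4.3.3), with Benjamini-Hochberg adjustment over all kept probes, and the means of the 8 groups entered a second fit that blocks on dog. Tests were two-sided, and the scripts were tested on simulated data. Of each other list the 4 called genes of largest change were named, and other list members were named after their values were seen. Likeness of profiles was ranked by Pearson correlation over the 8 group means. Results for some other genes are not reported here. The genes and lists were chosen with earlier results of these data known. Alternatives were other scalings and normalisations, dim-probe filters, slide and replicate blocks and leaving out arrays or dogs.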

Additional observations from a re-analysis of the deposited data

Results flagged for a closer look

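Dog 2 stood far below the other dogs in 7 of 33 comparisons of 4 dogs made for the 11 probes (level in each phase, and change), by the ratio of its gap to the nearest dog over the whole range (Dixon's test). Chance flags about 1 in 20 such comparisons, and the 11 probes are not independent. The share of all probes flagged in this way was not computed, so the 7 cannot be read as an excess. In the resistant phase the ratio was 0.874 and 0.863 for MX1 probes 1 and 2 and 0.869 and 0.868 for OAS3 probes 1 and 2. In the sensitive phase it was 0.848 and 0.842 for OAS1 probes 1 and 2 and 0.873 for EIF2AK2.

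The change between phases differed between dogs 1 and 2 for all 11 probes. The interaction passed limma's F-test for each, as it did for 80.5% of all probes. The change in dog 1 minus that in dog 2 was 7.47 and 8.34 for MX1, 3.47 and 3.02 for OAS1, 4.73 and 4.64 for OAS2, 1.60 and 1.58 for OAS3, 2.91 for EIF2AK2 and 11.29 and 10.05 for CXCL10, where 2 values are those of probes 1 and 2. The values of 8.34 and 3.02 are fitted, since the probe was not well above background in the resistant phase of dog 2. With that phase at its bound the differences were at least 7.96 and 2.44. These bounds hold for the processed signal alone, and with normexp the changes of these probes in dog 2 were -2.15 and -0.27.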

How the results depend on the processing

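The counts of called probes (9, 9, 0 and 0 of 11 in dogs 1 to 4) were the same under array median scaling, quantile normalisation, no filter on dim probes, the slide as a random block, the 6 arrays of a dog alone and the replicate block, and in dogs 1 to 3 with the slide as a fixed block or within a slide, which could not be fitted for dog 4. Leaving out each array gave 9 in dog 1, 9 to 10 in dog 2 and 0 in dogs 3 and 4, and the 10th was OAS3 probe 2 at -1.03 without resistant array 2. In dog 2, 7 probes were called with normexp and in the authors' value table, where OAS1 probe 2 changed by -0.27 and -0.48 and EIF2AK2 by -0.43 and -0.65. The same settings gave smaller falls in dog 2 for MX1 (-3.55 and -3.92 for probe 1, -2.15 and -2.92 for probe 2) and CXCL10 (-5.92 and -6.70, -5.16 and -5.88), and normexp gave rises of 2.21 and 1.89 for CXCL10 in dog 1. Normexp raises dim signals, and the authors' table has no background subtracted.

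Fewer probes enter with the 7 well above background on all 24 arrays (5 called in dogs 1 and 2, and 7 in each F-test) or with the brightest probe of each gene (5 and 6). At an adjusted p alone, a rule added after seeing the data, 9 and 3 probes passed in dogs 3 and 4. In dog 4, changes that were never called turned sign: MX1 probe 1 to -0.01 with median scaling, OAS2 probe 1 to 0.01 with normexp, and OAS1 probe 1 to 0.04 without sensitive array 2 and 0.01 without resistant array 2 (-0.04 to 0.04 over the arrays left out). Across dogs 0 probes passed without each dog, without the dog block and with the group as a random block. With array median scaling the median change over all probes was 0.13 in dog 1 and 0.25 in dog 2 in place of -0.05 and 0.10, and member changes shifted by as much. It also moved the split of calls over all probes from 3.56% higher and 7.75% lower to 5.21% and 6.19% in dog 1. Same-numbered replicates of the phases did not deviate together (correlations of -0.12 to 0.09), so the replicate block pairs no samples by design.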
